A study of Mus musculus with 12 samples.

Results

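The genes described here make leukotrienes and prostaglandins, the lipid mediators that mast cells and myeloid cells release. They were taken by name as Alox5, Alox5ap, Alox15, Ltc4s, Lta4h, Hpgds, Ptgs1 and Ptgs2, and their probes were found through the gene symbol of each array probe, current or older. Of these 8 genes, 7 had a named probe, out of 20289 genes with a named probe in all, and Ptgs1 was not analysed here. The 7 genes had 13 probes, of which 9, belonging to 5 genes, were above background (detection p under 0.05) on 3 or more of the 12 arrays and entered the tests: Alox5, Alox5ap, Alox15, Ltc4s and Hpgds.

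Bone marrow of β-globin/GFP transgenic mice aged 3 months was separated with magnetic beads by CD117, the receptor tyrosine kinase c-Kit, and RNA was hybridized to Illumina arrays in 4 groups of 3. The groups were CD117+ cells treated with 3 μg/ml of stem cell factor (SCF), the ligand of c-Kit, for 48 h (titled SCF), a CD117+ set titled U, a CD117+ set titled C, and CD117− cells (titled A). The letter U is not spelled out, and the set was read as the one without SCF because the treatment is stated for the SCF arrays alone. All mice carried the transgene, a human β-globin intron within the GFP gene that has a splicing mutation of thalassaemia, so no group is wild type. The study states separate mice for the replicates of CD117+ and CD117− cells without naming the U and SCF arrays, so for these the p-values may measure technical spread only. It describes culture of CD117+ cells in a medium with insulin, serum and erythropoietin, and does not say whether the C cells were cultured.

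In mast cells, granulocytes and macrophages, arachidonic acid is freed from membrane phospholipids and enters 1 of several enzyme branches. Arachidonate 5-lipoxygenase (Alox5), which needs its membrane partner FLAP (Alox5ap), makes leukotriene A4. Lta4h then turns it into leukotriene B4, an attractant of neutrophils, while Ltc4s joins it to glutathione to give leukotriene C4, the parent of the cysteinyl leukotrienes that mast cells and eosinophils release. The cyclooxygenases Ptgs1 and Ptgs2 open the prostaglandin branch, in which Hpgds makes prostaglandin D2, a main prostanoid of mast cells. Alox15 is the 12/15-lipoxygenase, which in the mouse is known from peritoneal macrophages and eosinophils.

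The sequence just upstream of the start site is shown for Alox5, Ltc4s and Hpgds, the last being the prostaglandin D2 synthase. Alox5 and Ltc4s differed in opposite directions in SCF against U, though the Alox5 call was lost under some alternatives. Against C both were higher in SCF. Each is the 250 bases before the RefSeq start (GRCm38.p6), 5′ to 3′ on the strand of the gene, and all 3 genes lie on the minus strand. Capitals mark matches on either strand to GGGCGG (a GC box), GAGGAA (the core of PU.1 sites) or GATAA (the core of GATA sites), and no match overlapped another.
Alox5, chr6:116461179-116461428: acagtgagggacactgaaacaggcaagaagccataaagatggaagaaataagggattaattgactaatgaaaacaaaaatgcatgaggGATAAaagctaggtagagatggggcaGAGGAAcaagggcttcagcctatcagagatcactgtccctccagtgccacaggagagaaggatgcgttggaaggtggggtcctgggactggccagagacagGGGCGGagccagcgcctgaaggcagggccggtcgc
Ltc4s, chr11:50238533-50238782: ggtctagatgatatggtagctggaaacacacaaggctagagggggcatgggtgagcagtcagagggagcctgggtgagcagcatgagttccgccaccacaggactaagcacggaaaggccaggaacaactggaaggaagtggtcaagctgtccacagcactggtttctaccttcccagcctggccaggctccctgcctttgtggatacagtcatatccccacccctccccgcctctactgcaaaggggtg
Hpgds, chr6:65144731-65144980: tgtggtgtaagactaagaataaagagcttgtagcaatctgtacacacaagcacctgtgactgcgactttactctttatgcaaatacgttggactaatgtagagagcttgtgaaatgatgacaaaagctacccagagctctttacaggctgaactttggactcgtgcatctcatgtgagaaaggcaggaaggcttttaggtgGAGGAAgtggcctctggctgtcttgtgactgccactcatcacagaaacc
Alox5 held 1 match to each of the 3 motifs, Hpgds held 1 to the PU.1 core, and Ltc4s held none. None of the 3 genes held the CCAAT box or the TATAAA box, which were also searched on both strands. Among 32851 mouse promoter windows of the same length, 32.7% held the GC box, 23.3% the PU.1 core, 22.6% the GATA core, 33.8% the CCAAT box and 12.4% the TATAAA box, so each match is common and is given as a description of the letters only. Of the 8 genes, 6 were in the promoter table, and Alox5ap and Alox15 were not among them.

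Levels are given as log2 normalised intensity of a probe, after background correction and quantile normalization of all 12 arrays together. On this scale the dimmest signal above background lay at 4.63 to 4.82, depending on the array. Between 16210 and 18248 probes were above background per array. Arrays of a group correlated at 0.981 to 0.995 over the 11472 genes tested and arrays of different groups at 0.854 to 0.974. Kit, which encodes CD117, averaged 11.50 ± 0.09 in C and 9.34 ± 0.35 in A (SD, n = 3 each), a log2 difference of 2.16 (adjusted p = 4.94e-09, limma). Among the CD117+ sets it was 1.40-fold higher in SCF than in U (adjusted p = 0.0236, limma), 2.45-fold lower in U than in C (adjusted p = 1.56e-06) and 1.75-fold lower in SCF than in C (adjusted p = 0.000308). Groups were compared with limma over 11472 genes, the brightest detected probe standing for a gene, and a gene was called at a Benjamini-Hochberg adjusted p under 0.05. The number of arrays limits the precision. In such bulk samples, fewer cells of a type and less RNA per cell cannot be told apart.

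Alox5 was highest in CD117− cells and lowest in the CD117+ C cells. Its brightest probe read 9.61, 9.48 and 9.86 in SCF, 10.52, 9.99 and 9.97 in U, 8.81, 9.06 and 8.76 in C, and 10.56, 10.73 and 11.04 in A. The 4 groups therefore did not overlap, and stood in the order A, U, SCF, C from high to low. Its second probe read 7.43, 7.43 and 7.87 in SCF, 8.32, 7.75 and 7.92 in U, 6.86, 6.95 and 6.67 in C, and 8.46, 8.79 and 8.88 in A. On this probe the third SCF array lay above the second U array, so these groups overlapped, while C stayed lowest and A highest. The third probe read 7.67, 7.26 and 7.40 in SCF, 8.16, 7.95 and 8.26 in U, 6.80, 6.82 and 6.80 in C, and 8.60, 8.77 and 7.93 in A. Here A overlapped U, and SCF lay between U and C with no overlap.

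Alox5ap, the partner that presents arachidonic acid to 5-lipoxygenase, was bright on all arrays, with both probes far above background. Its brighter probe read 12.50, 12.41 and 12.34 in SCF, 13.05, 12.93 and 12.75 in U, 11.69, 11.98 and 11.56 in C, and 12.92, 13.02 and 13.04 in A. U and A overlapped at the top, C was lowest, and SCF lay between with no overlap to either. The other probe read 12.22, 12.41 and 12.36 in SCF, 12.65, 12.62 and 12.60 in U, 11.34, 11.47 and 11.32 in C, and 12.76, 12.71 and 12.41 in A. The order was the same in that C stood apart below the rest, and the third A array (12.41) lay at the level of the second SCF array (12.41).

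Of the enzymes after leukotriene A4, the probe of Ltc4s was above background in most samples and that of Lta4h in 1. Ltc4s read 6.68, 6.67 and 6.70 in SCF, 5.96, 5.86 and 6.26 in U, 4.74, 4.87 and 4.97 in C, and 5.00, 4.86 and 4.31 in A. SCF was highest and U next with no overlap, and C and A overlapped near the dimmest detectable signal, with 3 of 3 C arrays and 2 of 3 A arrays above background. The 1 probe of Lta4h lay between 4.23 and 4.77 on all arrays and was above background on 1 array, of A. This probe, matched through its gene symbol alone, was therefore not well above background, and Lta4h was not compared. With 1 such probe, the level of Lta4h, the leukotriene B4 step, cannot be told.

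Alox15 was detected in 2 of the 4 groups. Its probe read 4.28, 4.25 and 4.35 in SCF, 4.34, 4.33 and 4.34 in U, 6.50, 6.39 and 6.04 in C, and 8.01, 8.06 and 7.61 in A. All 3 A arrays lay above all 3 C arrays, and 0 of the 6 SCF and U arrays were above background. A second Alox15 probe was above background on 0 of 12 arrays.

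In the prostaglandin branch, Hpgds was dim. Its brighter probe read 5.50, 5.70 and 4.97 in SCF, 5.29, 6.16 and 5.48 in U, 4.37, 4.55 and 4.54 in C, and 4.92, 4.77 and 5.27 in A. It was above background on all SCF and U arrays, on 2 A arrays and on 0 C arrays, and SCF and U overlapped. The second probe read 5.00, 5.26 and 4.84 in SCF, 5.19, 5.54 and 5.11 in U, 4.40, 4.25 and 4.28 in C, and 4.49, 4.43 and 4.50 in A, and was above background in SCF and U alone. Ptgs2, the inducible cyclooxygenase, had 2 probes, which read 4.20 to 4.42 and were above background on 0 of 12 arrays, so it was not well above background in any group.

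**Figure D1:**
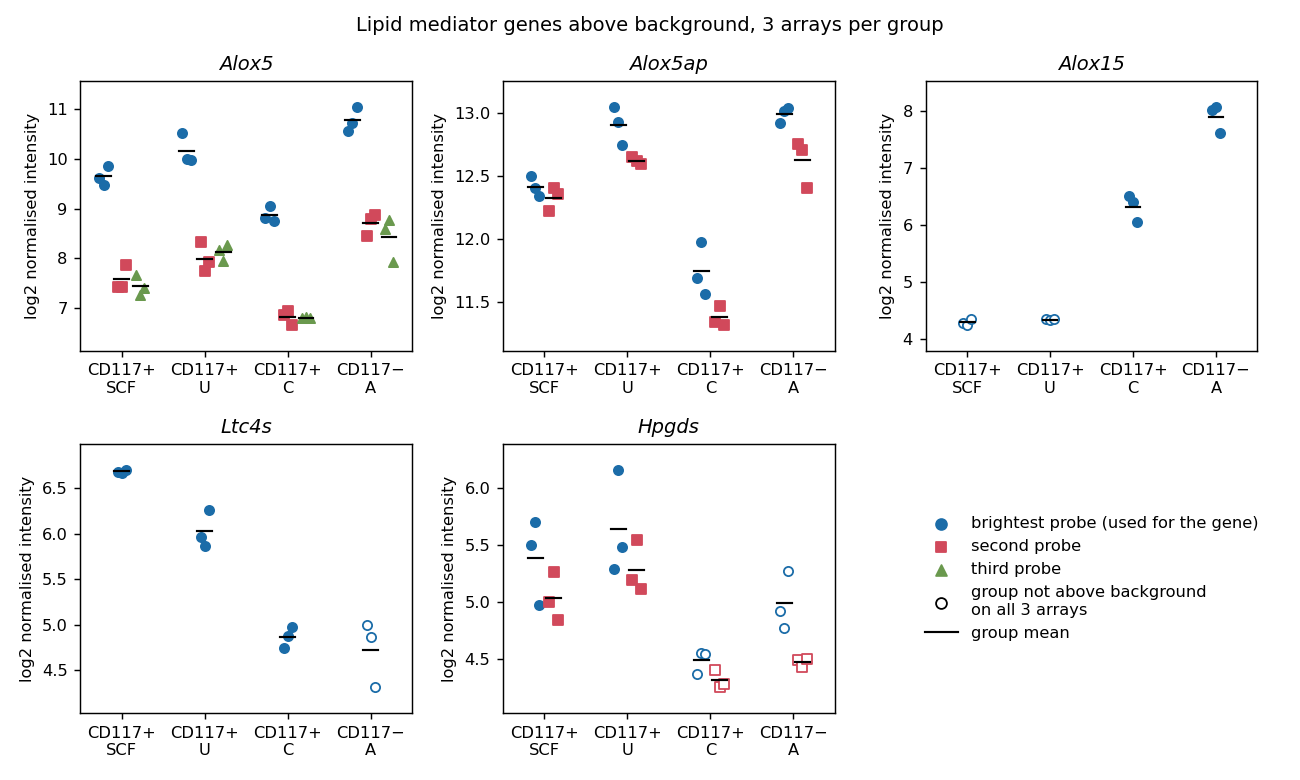
Log2 normalised intensity (y axis) of every detected probe of the 5 measured genes on each array, by group (x axis, 3 arrays each); bars are group means and open symbols mark groups not above background on all 3 arrays. Alox5 and Alox5ap are lowest in C, Alox15 is above background in C and A alone, and Ltc4s is highest in SCF, at 6.67 to 6.70.

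The first comparison of the study set CD117+ against CD117− marrow cells. Of the 5 genes tested, 3 were lower in C than in A (Alox5, Alox5ap and Alox15), 0 were higher and 2 were not called, beside 51.0% of all 11472 genes called, 21.3% lower and 29.6% higher. The arrays of C and A did not overlap for 4 of the 5, among them Hpgds with 0 C arrays above background, beside 57.2% of all genes. The median log2 difference of the 5 was -1.25, against 0.07 over all genes. Alox5 averaged 8.88 ± 0.16 in C and 10.78 ± 0.24 in A (SD, n = 3 each), a 3.73-fold lower level in C (log2 difference -1.90, standard error 0.17, adjusted p = 8.12e-08, limma). Its other probes gave -1.88 and -1.63 and were called as well, beside 47.6% of all 17712 detected probes. Alox5ap was 2.38-fold lower in C (log2 difference -1.25, standard error 0.12, adjusted p = 1.59e-07, limma), with -1.25 on its second probe. Alox15 was 3.00-fold lower in C, at 6.31 ± 0.24 in C and 7.89 ± 0.25 in A (log2 difference -1.59, standard error 0.16, adjusted p = 5.1e-07, limma). The difference was -0.98 without background correction and -0.90 with median scaling, under which Alox5 gave -1.23.

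Ltc4s and Hpgds did not pass the test in this comparison. Ltc4s differed by 0.13 (95% interval -0.24 to 0.51, adjusted p = 0.575, limma), and the sign turned without the third A array, at -0.07. Hpgds differed by -0.50 (95% interval -0.97 to -0.04, adjusted p = 0.067, limma). The probe was below background in C, so no fold is given, and without the second A array the adjusted p was 0.0498. Markers of other cells moved with these values. Of 11 tested neutrophil markers 10 were lower in C, with a summed intensity of 1930 to 3420 in C and 102000 to 114000 in A, and Mmp8 was not above background in C. Of 10 monocyte and macrophage markers 9 were lower (1470 to 1750 in C, 3740 to 5300 in A), and of 5 eosinophil markers 4 were lower (23600 to 29700 in C, 37500 to 39600 in A). Mast cell and basophil markers went the other way, with 6 of 9 higher and 1 lower (17800 to 18400 in C, 7350 to 8360 in A, where Cma1, Tpsab1 and Ms4a2 were not above background). The part of these cells in the results was not tested.

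The second comparison set SCF-treated CD117+ cells against the U set. Here 2 of the 5 genes were lower in SCF (Alox5 and Alox5ap), 1 was higher (Ltc4s) and 2 were not called, beside 27.8% of all genes called, 13.7% lower and 14.1% higher. The arrays of SCF and U did not overlap for 3 of the 5, beside 42.0% of all genes, and the median log2 difference of the 5 was -0.25, against 0.02 over all genes. This median is the value of Hpgds, which was not called, and Alox15 was below background in both groups. Alox5ap was 1.41-fold lower with SCF, at 12.42 ± 0.08 in SCF and 12.91 ± 0.15 in U (SD, n = 3 each; log2 difference -0.50, standard error 0.12, adjusted p = 0.00445, limma). Its second probe gave -0.29 and did not pass the test (adjusted p = 0.0619 over all detected probes, limma). Alox5 was 1.42-fold lower, at 9.65 ± 0.19 in SCF and 10.16 ± 0.31 in U (log2 difference -0.51, standard error 0.17, adjusted p = 0.0325, limma). Of its other probes, 1 passed the test with -0.68 (adjusted p = 0.017, limma) and 1 did not with -0.42 (adjusted p = 0.109, limma), beside 25.1% of all detected probes called. The call of Alox5 was lost without the first SCF array (-0.49, adjusted p = 0.0831), the second SCF array (-0.42, adjusted p = 0.123) or the first U array (-0.33, adjusted p = 0.185). It was also lost with median scaling of the arrays (-0.44, adjusted p = 0.158) and with no filter on dim probes (-0.51, adjusted p = 0.0562).

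Ltc4s, read by 1 probe, was 1.58-fold higher with SCF, at 6.69 ± 0.02 in SCF and 6.02 ± 0.21 in U (SD, n = 3 each; log2 difference 0.66, standard error 0.18, adjusted p = 0.0102, limma). It was called under every alternative run, though close to the threshold without the second U array (0.58, adjusted p = 0.0493, limma) and with no filter on dim probes (adjusted p = 0.0438). The log2 difference was 0.33 without background correction, 0.37 on the processed values and 0.47 with an offset of 50. Within an array, the log2 intensity of Ltc4s minus that of Alox5 was -2.96 ± 0.18 in SCF, -4.14 ± 0.42 in U and -4.02 ± 0.20 in C (SD, n = 3 each). The arrays of SCF, at -3.15 to -2.81, all lay above those of U and C on this difference, whose size depends on the probes, and none is given for A, where 1 Ltc4s array was below background. Against Alox5ap the same difference was -5.73 ± 0.09 in SCF, -6.89 ± 0.34 in U and -6.88 ± 0.27 in C. Hpgds differed by -0.25 between SCF and U (95% interval -0.71 to 0.21, adjusted p = 0.446, limma), and without the second U array the difference was 0.01. Alox15 was below background in both, so no fold change is given.

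Several marker lists moved with SCF. Of 11 megakaryocyte and platelet markers 10 were lower (24600 to 26700 in SCF, 65000 to 67600 in U), of 5 eosinophil markers 5 were lower (2020 to 2200 in SCF, 12600 to 15800 in U), and of 10 monocyte and macrophage markers 7 were lower and 1 was higher (4060 to 8140 in SCF, 9840 to 14600 in U, with Ccr2 not above background in either). Of 7 erythroid markers 5 were lower and 1 was higher (5760 to 8650 in SCF, with Tspo2 not above background, and 18400 to 21900 in U). Mast cell and basophil markers were mixed, with 2 of 9 higher and 3 lower (11300 to 15800 in SCF, 14500 to 16200 in U), as were neutrophil markers, with 2 of 11 higher and 3 lower (30400 to 33300 in SCF, 34000 to 36800 in U). Their part in the values of Alox5, Alox5ap and Ltc4s was not tested.

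**Figure D2:**
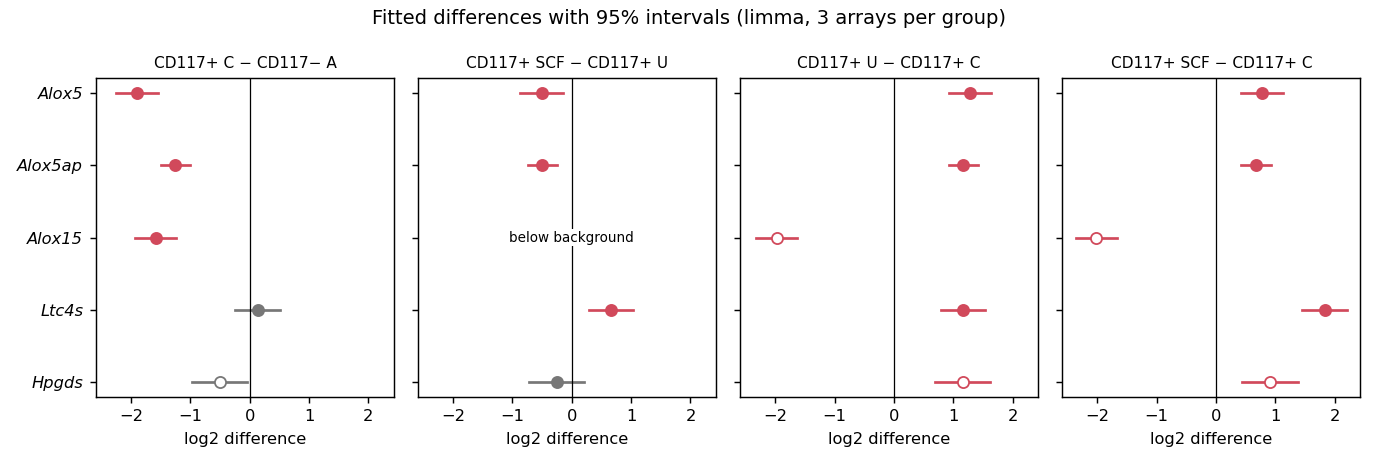
Fitted log2 difference (x axis) of each measured gene in the 4 comparisons, with its 95% interval; red marks an adjusted p under 0.05, grey none, and open points mark a group below background. Alox5 and Alox5ap lie below 0 in the C against A and SCF against U panels and above 0 in the others, and Ltc4s lies at 0.66 in SCF against U and 1.83 in SCF against C.

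The U and C sets of CD117+ cells, neither labelled as treated with SCF, were also compared, and SCF was set against C as the other possible baseline. These comparisons share the C arrays with the first one and the SCF or U arrays with the second. The processed values deposited for A and C follow 1 distribution and those for U and SCF another, so these values were normalized in 2 sets. A difference between the sets and a difference between the cells cannot be told apart here. In U, 4 of the 5 genes were higher than in C and 1 was lower, beside 57.1% of all genes called, 28.5% higher and 28.5% lower, and the arrays did not overlap for 5 of 5, beside 65.7% of all genes. In SCF, likewise 4 were higher than in C and 1 was lower, beside 46.5% called, 24.6% higher and 21.9% lower, and the arrays did not overlap for 5 of 5, beside 58.9% of all genes. Alox15 and Hpgds passed the filter only through groups where they were higher. Alox15 was above background on 0 U and 0 SCF arrays, and Hpgds on 0 C arrays. For these genes the calls and the lack of overlap are no independent support.

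Alox5 was 2.43-fold higher in U than in C (log2 difference 1.28, adjusted p = 5.92e-06, limma) and 1.71-fold higher in SCF than in C (0.77, adjusted p = 0.0012). Alox5ap was 2.25-fold higher in U than in C (1.17, adjusted p = 2.82e-07, limma) and 1.59-fold higher in SCF than in C (0.67, adjusted p = 0.000165). Ltc4s was 2.25-fold higher in U than in C (1.17, adjusted p = 2.83e-05, limma) and 3.55-fold higher in SCF than in C (1.83, adjusted p = 2.59e-07). Without background correction the log2 differences of Ltc4s were 0.41 in U and 0.74 in SCF. The brighter Hpgds probe was at least 1.99-fold higher in U (adjusted p = 0.000247, limma) and at least 1.67-fold higher in SCF (adjusted p = 0.00269), as C was below background. Without background correction its log2 differences were 0.38 and 0.28. The second Hpgds probe gave smaller bounds, at least 1.55-fold in U and at least 1.30-fold in SCF. Alox15 was at least 3.16-fold lower in U (adjusted p = 2.99e-08, limma) and at least 3.16-fold lower in SCF (adjusted p = 3e-08), as it was below background in U and in SCF, and without background correction the log2 differences were -0.72 and -0.75, so that the bounds of Hpgds and Alox15 hold on the scale used here. Over the same groups 9 of 11 neutrophil markers were higher in U than in C and 8 in SCF than in C, and 9 and 7 of 10 macrophage markers were higher, with 1 lower in each. Of 5 eosinophil markers 4 were lower than in C both in U and in SCF. Platelet markers were higher in 10 of 11 in U and 8 of 11 in SCF, with 1 lower in SCF, and summed to 10900 to 15900 in C and 5220 to 12900 in A. Of 9 mast cell and basophil markers 3 were higher and 1 lower in U than in C, and 4 were higher and 3 lower in SCF than in C. The part of these cells in the values was not tested.

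**Figure D3:**
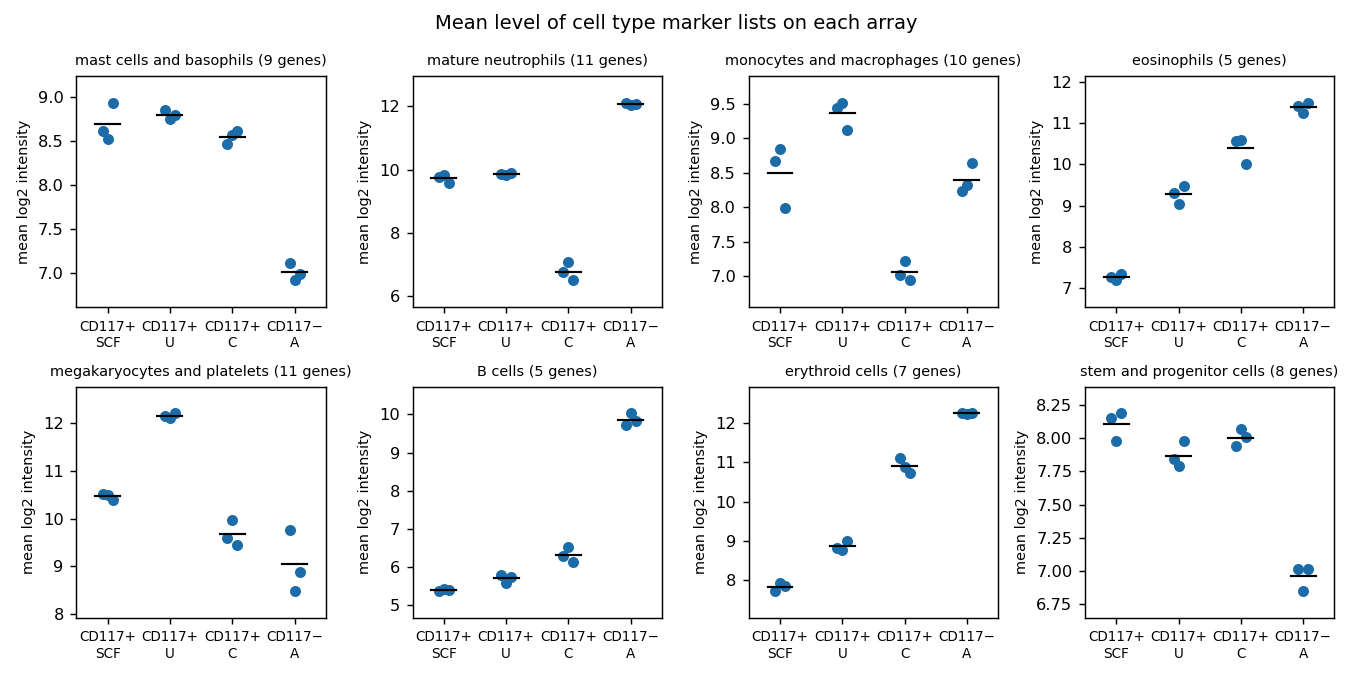
Mean log2 intensity (y axis) of the tested genes of each cell type marker list on each array, by group (x axis), with bars for group means. Neutrophil, erythroid and B cell lists are highest in A, the platelet list in U, and the eosinophil list falls in the order A, C, U, SCF.

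The lists less tied to these enzymes moved as well. B cell markers summed to 366 to 416 in SCF, 432 to 510 in U, 622 to 790 in C and 7660 to 10700 in A, with Ms4a1 not above background in the 3 CD117+ groups and Igll1 not in SCF and U. Erythroid markers summed to 5760 to 8650 in SCF, 18400 to 21900 in U, 30600 to 38800 in C and 74900 to 76800 in A, with Tspo2 not above background in SCF. Stem and progenitor markers summed to 5030 to 5800 in SCF, 4340 to 5140 in U, 5720 to 6190 in C and 1500 to 2010 in A.

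The remaining genes of the pathway were taken as 51 genes in 5 classes, of which 49 had a named probe and 35 were tested. In C against A, 11 were higher, 12 lower and 12 not called, beside 29.6% of all genes higher and 21.3% lower, and with median scaling of the arrays 14 were higher and 7 lower. In SCF against U, 1 was higher, 12 were lower and 22 not called, beside 14.1% of all genes higher and 13.7% lower, with a median log2 difference of -0.23, against 0.02 over all genes. With C as the baseline the counts differed. In SCF 11 were higher and 9 lower than in C, beside 24.6% and 21.9% of all genes. In U 17 were higher and 7 lower than in C, beside 28.5% and 28.5%. Below, lower or higher with SCF therefore means against U alone.

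Of 7 phospholipases, which free arachidonic acid, 5 were higher and 1 was lower in C than in A, beside 29.6% and 21.3% of all genes. Pla2g12a, a secreted phospholipase, was 2.75-fold higher, at 10.87 ± 0.12 in C and 9.41 ± 0.33 in A (SD, n = 3 each; log2 difference 1.46, adjusted p = 4.19e-07, limma). Pla2g6, a calcium-independent phospholipase, was at least 2.41-fold higher in C, as it was below background in A (adjusted p = 1.75e-06, limma), while the log2 difference was 0.47 without background correction and 0.39 on the processed values, both under that bound, which holds on the scale used here. Pla2g4b, Pla2g4c and Pla2g10 were the other higher ones and Pla2g15 the lower one. Pla2g10 was above background on 2 C arrays and 0 A arrays, with a bound of only 1.01-fold. With SCF 0 of 7 were higher and 2 were lower, beside 14.1% and 13.7%. Pla2g10, a secreted enzyme, read 4.73, 4.67 and 4.43 in SCF and 6.05, 5.82 and 6.37 in U, 2.77-fold lower with SCF (log2 difference -1.47, adjusted p = 4.33e-06, limma), with -0.51 without background correction. Pla2g15, the lysosomal phospholipase, was 1.60-fold lower with SCF (log2 difference -0.68, adjusted p = 0.00766, limma), although its arrays overlapped. Pla2g4a, the cytosolic phospholipase most tied to leukotriene synthesis, did not pass the filter on dim probes.

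Among the other lipoxygenases and leukotriene steps, 7 of 10 genes were lower in C than in A and 2 were higher, beside 21.3% and 29.6% of all genes. Mgst1, a microsomal glutathione transferase, read 8.66, 8.86 and 8.74 in C and 11.56, 11.56 and 11.46 in A, 6.84-fold lower in C (log2 difference -2.77, adjusted p = 1.4e-11, limma). Mgst2, a relative that can also make leukotriene C4, read 7.66, 7.63 and 7.25 in C and 10.45, 10.09 and 10.27 in A, 6.75-fold lower in C (-2.76, adjusted p = 5.8e-09, limma). The C and A arrays did not overlap for either, while those of Ltc4s did, and the difference between these genes was not tested. Ltc4s lay near the dimmest detectable signal in both groups, so it could not show a drop of this size. Mgst3, Cyp4f18, Cotl1, Ggt5 and Ggt1 were the other lower genes and Alox12 and Alox8 the higher ones, though the arrays of Alox12 overlapped and 1 of its other probes gave -0.03 (adjusted p = 0.92, limma). Alox8 was below background in A and Ggt1 in C, with bounds of 1.11-fold and 1.21-fold. With SCF 3 of 10 were lower and 0 higher, beside 13.7% and 14.1%. Alox12, the platelet 12-lipoxygenase, read 9.81, 9.75 and 9.08 in SCF and 12.06, 12.24 and 12.24 in U, 6.20-fold lower with SCF (log2 difference -2.63, adjusted p = 8.79e-06, limma), and its other probes gave -1.09 and -1.87. Cyp4f18, which in mouse neutrophils breaks down leukotriene B4, was 2.30-fold lower with SCF (-1.20, adjusted p = 0.000154, limma), although a second probe did not pass the test (-0.40, adjusted p = 0.278). Mgst1 was the third lower gene, and its second probe did not pass the test either (-0.09, adjusted p = 0.745, limma).

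Terminal prostanoid synthases split in both comparisons. In C, 3 of 7 were higher than in A and 1 was lower, beside 29.6% and 21.3% of all genes. Cbr1, a carbonyl reductase that acts on prostaglandin E2, was 1.76-fold higher (log2 difference 0.82, adjusted p = 0.000444, limma), and Ptges3, a prostaglandin E synthase and co-chaperone of Hsp90, was 2.09-fold higher (1.06, adjusted p = 0.000532, limma). Ptges2 was also higher and Ptges lower, the latter above background on 1 C array and 3 A arrays. With SCF 1 was higher and 3 were lower, beside 14.1% and 13.7%. Ptges3 was the higher one, at 8.24, 8.55 and 8.77 in SCF and 7.81, 7.69 and 7.63 in U (log2 difference 0.81, adjusted p = 0.00953, limma), with a call lost without the third SCF array (0.68, adjusted p = 0.05). Tbxas1, the thromboxane synthase, read 9.35, 9.48 and 9.86 in SCF and 10.50, 10.63 and 10.56 in U, 2.00-fold lower with SCF (standard error 0.16 on the log2 scale, adjusted p = 0.000171, limma). Prxl2b and Ptgds, which make prostaglandins F2α and D2, were the others. Ptgds was above background on 1 SCF array and 2 U arrays, and its arrays overlapped.

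Of the 4 tested genes of prostanoid export and breakdown, Hpgd was called in both comparisons and the others in neither. Of all genes, 51.0% were called in C against A and 27.8% in SCF against U. Hpgd, the dehydrogenase that inactivates prostaglandins, read 5.02, 5.05 and 4.88 in SCF and 6.76, 6.87 and 6.83 in U, 3.58-fold lower with SCF (log2 difference -1.84, adjusted p = 2.04e-06, limma), with -0.78 without background correction and -0.90 on the processed values. It was 1.63-fold lower in C than in A (-0.71, adjusted p = 0.00273, limma), a call that was lost with median scaling (-0.28, adjusted p = 0.239).

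Among 7 tested receptors, 2 were lower and 1 was higher in C than in A, beside 21.3% and 29.6% of all genes, and 3 were lower and 0 higher with SCF, beside 13.7% and 14.1%. Ltb4r1, the high-affinity receptor of leukotriene B4, read 9.82, 9.96 and 9.35 in C and 12.31, 12.42 and 12.12 in A, 5.96-fold lower in C (log2 difference -2.57, adjusted p = 2.08e-10, limma). Ptgir, the prostacyclin receptor, was 2.00-fold lower in C, at 6.39 ± 0.32 in C and 7.39 ± 0.20 in A (SD, n = 3 each; adjusted p = 0.000271, limma), not called with median scaling (-0.34, adjusted p = 0.176), and 2.36-fold lower with SCF (-1.24, adjusted p = 0.000127, limma). Tbxa2r, the thromboxane receptor, read 7.63, 7.35 and 8.07 in SCF and 9.50, 8.88 and 8.97 in U, 2.70-fold lower with SCF (-1.43, adjusted p = 0.000129, limma). Ptger3 was the higher receptor in C and Ltb4r2 the third lower one with SCF. Tbxas1, Tbxa2r, Alox12 and Ptgir were lower with SCF, where most tested platelet, eosinophil, macrophage and erythroid markers were lower too. Against C, however, Tbxas1 (log2 difference 1.28), Tbxa2r (1.12) and Ptgir (0.57) were called higher in SCF, and Alox12 lower (-1.17). Hpgd (-0.13) and Pla2g10 (-0.17) were not called in SCF against C. Mgst1, Mgst2 and Ltb4r1 were lower in C than in A, as were most tested neutrophil, macrophage, eosinophil, B cell and erythroid markers. The part of these cells in the values was not tested.

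**Figure D4:**
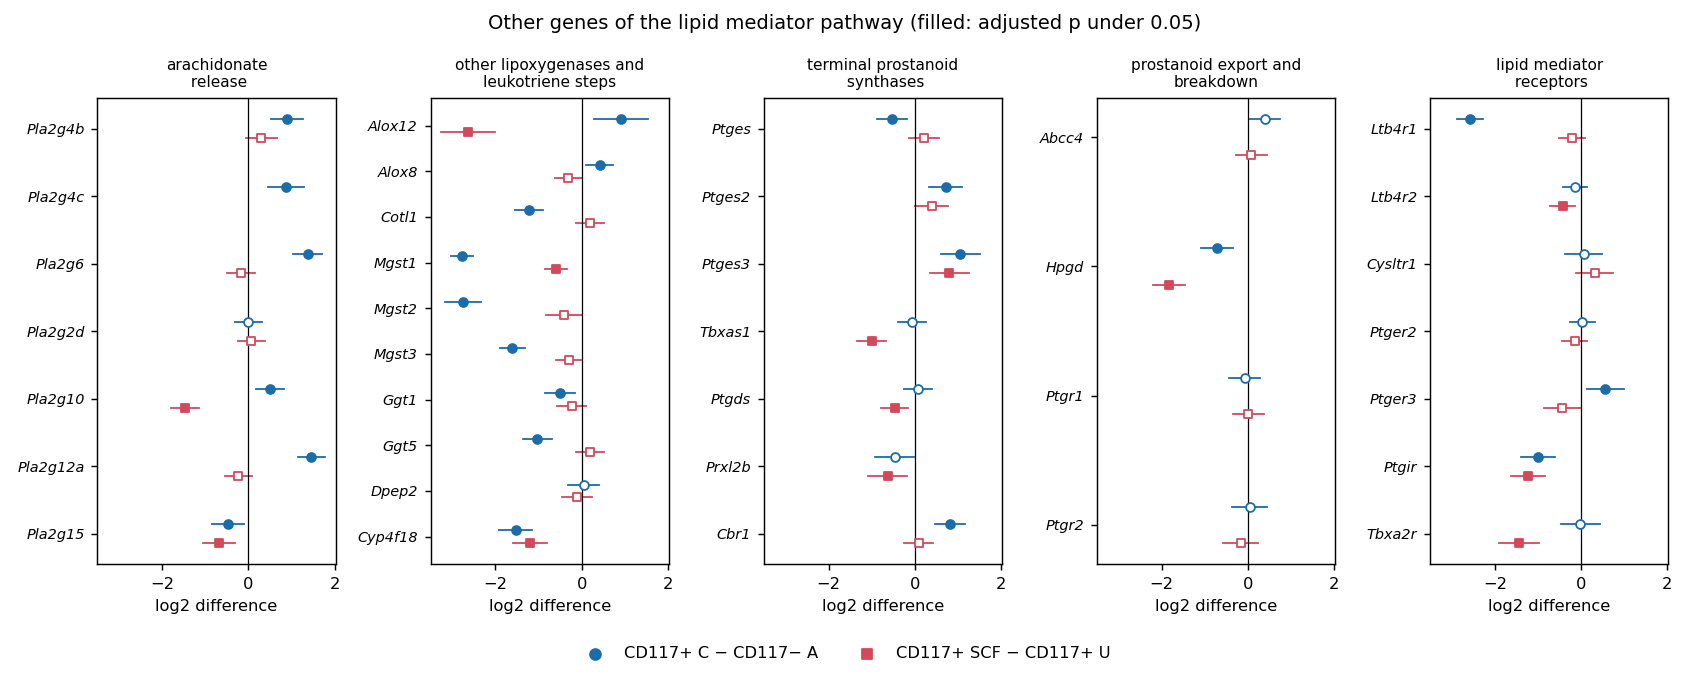
Log2 difference (x axis) with 95% interval of the 35 other pathway genes by class, for C against A (blue circles) and SCF against U (red squares); filled symbols have an adjusted p under 0.05, and genes below background in both groups have no symbol. With SCF 12 filled squares lie below 0 and 1, Ptges3 at 0.81, lies above it.

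Over the 12 arrays, the genes most like each of the measured ones were listed by Pearson correlation of log2 intensity among 11472 genes, as a description, since all genes share the same arrays and groups. For Alox5 they were Arrb2 (r = 0.977), Hvcn1 (r = 0.967) and Trp53inp2 (r = 0.964), and for Alox5ap Bcl10 (r = 0.987), Mocos (r = 0.979) and Zfand3 (r = 0.978). For Alox15 they were Itgad (r = 0.997), Pkhd1l1 (r = 0.996) and Galnt9 (r = 0.995), of which Itgad and Pkhd1l1 were above background on the same number of arrays as Alox15, 6 of 12. For Ltc4s they were Tdg-ps2 (r = 0.986), Tmem176b (r = 0.981) and Fkbp1a (r = 0.981), and for Hpgds Adam17 (r = 0.960), Gas2l3 (r = 0.957) and Nceh1 (r = 0.951). Among the genes themselves Alox5 and Alox5ap ran together (r = 0.940), Alox15 and Ltc4s ran opposite (r = -0.879), and Alox5 and Ltc4s were close to unrelated (r = -0.10, 12 arrays). Alox15 was below background in SCF and U, and Ltc4s lay near the dimmest detectable signal in C and A. The r of Alox15 with Ltc4s therefore rests largely on which groups lay near background.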

How the data were processed

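RNA of 12 samples in 4 groups of 3 was measured on Illumina arrays. The authors deposited linear scanner intensity with neither background correction nor normalization, each beside its detection p-value. A deposited table of processed intensity, which by its values was quantile normalized in separate sets, served as an alternative. The software of the scanner is not given in the sources used here. All columns were used.

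The 12 arrays were normalized together with neqc of limma 3.58.1 in R 4.3.3 (normexp, negative controls taken from the detection p, offset 16, then quantile). Python 3.11.15 and matplotlib 3.10.9 drew the figures. A gene symbol was found for 35784 of 45281 probes and none for 9497. The filter asked for detection p under 0.05 on 3 or more arrays and left 20614 probes (17712 with a symbol), whose brightest stood for each of 11472 genes. Values of other probes come from a fit over the 17712. Groups were compared by lmFit with 4 means, 8 residual degrees of freedom and a trended eBayes. A level below background in 1 group gives a lower bound, computed on each array against the dimmest detected probe or the gene's own signal, whichever was higher. The fit was tested on simulated data.

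The genes, the pathway classes and the 8 marker lists (mast cells and basophils, neutrophils, monocytes and macrophages, eosinophils, megakaryocytes and platelets, B cells, erythroid cells, stem and progenitor cells) were chosen with earlier results of these data known. Named were all genes of the set with every probe, the 3 genes most correlated with each, and pathway genes called in C against A or SCF against U, with values for at least the 2 of smallest adjusted p per class. Between any pair of arrays, at most 0.00221% of probes had equal raw values. Alternatives were another offset, no background correction, median scaling, the processed values, other dim-probe filters, averaging of probes, eBayes without a trend, array weights, fits of the 6 arrays compared, the replicate block and leaving out each array.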

Additional observations from a re-analysis of the deposited data

How the results depend on the processing

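The counts of genes called, for the synthesis genes, the pathway genes and all genes in each of the 4 comparisons, stayed within 1.5 times their value under every alternative run. Of the single genes named with a test, the signs of 2 turned, neither of them called. Ltc4s in C against A had a log2 difference of -0.046 with array weights (adjusted p = 0.815, limma) and, with 1 array left out, -0.072 (without the third A array, adjusted p = 0.749) to 0.27, and Hpgds in SCF against U had -0.43 to 0.0078 (without the second U array, adjusted p = 0.986). Hpgds in C against A was called in fits of the 6 arrays alone (-0.50, adjusted p = 0.0179, and -0.39, adjusted p = 0.0212, with these arrays normalized alone), on the processed values (-0.12, adjusted p = 0.0294) and without the second A array (-0.61, adjusted p = 0.0498). The cause was not tested.

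With 1 array left out, 3 to 4 of the 5 genes were called in C against A, 2 to 3 in SCF against U, and 5 in the other comparisons. The pathway counts ran over 20 to 24, 9 to 13, 21 to 24 (U against C) and 20 to 21 (SCF against C), and those of all genes over 5087 to 5893, 2445 to 3031, 5865 to 6132 and 4546 to 5053. Median scaling moved the median log2 difference of all genes in C against A to 0.49, against 0.07, and the share of higher genes among those called to 85.4%, against 58.1%. In SCF against C that share was 73.8%, against 52.9%, and in U against C 61%, against 50%. The directions of the called synthesis genes were the same under it. Several sizes moved by over 1.5 times with their call kept. With no background correction or an offset of 50, Alox15 in U against C was -0.72 or -1.07, Alox15 in SCF against C -0.75 or -1.08, Pla2g6 in C against A 0.47 or 0.75, Pla2g10 with SCF -0.51 or -0.80, Hpgd with SCF -0.78 or -1.16, and Ltc4s in SCF against C 0.74 or 1.12. The processed values gave -0.92 for Alox15 in C against A, and -0.61 for Pla2g10 with SCF. In C against A, median scaling gave Mgst1 -2.14, Mgst2 -2.08, Pla2g12a 2.16 and Cbr1 1.51, and the mean of all probes gave Alox12 -1.86 with SCF.

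Equal replicate numbers showed no pairing of the arrays, though 3 arrays per group are too few to exclude one. The study does not say whether the C and A cells of a replicate number came from the same mouse. The deviations of arrays with the same number correlated at -0.08 to 0.01 in C against A and at -0.0049 to 0.048 in SCF against U, and not every array correlated best with its own number. With the replicate number as a block, 5786, 3104, 6499 and 5276 of all genes were called in C against A, SCF against U, U against C and SCF against C, and 3, 3, 5 and 5 of the synthesis genes and 24, 13, 23 and 21 of the pathway genes.

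With 3 arrays per group, the call of Alox5 with SCF (-0.51) sat close to the threshold. A group under about the dimmest detectable signal, such as C for Hpgds, gives only bounds. Lta4h and Ptgs2 did not pass the filter and were not compared. Groups of 3 were too few for a test for single outlying arrays.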
